A study of Mus musculus and Macaca nemestrina with 20 samples.

Results

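The subject is the voltage-gated sodium channels of sensory neurons, read from bulk RNA sequencing of dorsal root ganglia (DRG), the ganglia beside the spinal cord that hold the cell bodies of the neurons serving skin and muscle. The members were taken by gene symbol: the pore-forming alpha subunit genes Scn1a, Scn3a, Scn8a, Scn9a, Scn10a and Scn11a, and the beta subunit genes Scn2b, Scn3b and Scn4b. All 9 were among the 29766 genes of the mouse tables. In the monkey tables, with 35194 genes, 8 were found, and SCN1A was not analysed here. Mice of genotype ADAM17 KO (knockout; 7 libraries, 4 in batch 1 and 3 in batch 2) were compared with ADAM17 flox mice (7 libraries, titled control; 3 in batch 1 and 4 in batch 2). ADAM17 is a membrane protease that sheds cytokines, growth factor ligands and their receptors from the cell surface, and a floxed allele carries recombination sites around part of the gene. Pig-tailed monkeys (Macaca nemestrina) gave 3 libraries of ganglia serving skin treated with the contact sensitiser SADBE (squaric acid dibutyl ester), and 3 of ganglia serving control skin given vehicle. The series title places both settings under chronic itch and natriuretic peptide B. The labels give no Cre driver or tissue of deletion, and no strain, age, sex, ganglion level or number of animals per library.

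Voltage-gated sodium channels open when a neuron is depolarised and carry the rising phase of the action potential. An alpha subunit forms the whole pore from 4 linked domains, while a beta subunit spans the membrane once and alters gating, density and adhesion at the membrane. In DRG, the tetrodotoxin-resistant channels NaV1.8 (Scn10a) and NaV1.9 (Scn11a) are typical of small-diameter nociceptive and itch-sensing neurons, and NaV1.7 (Scn9a) sets their threshold. NaV1.1 (Scn1a) and NaV1.6 (Scn8a) are prominent in myelinated neurons, and NaV1.3 (Scn3a) is an embryonic channel that is known from rat work to return after axotomy.

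The division into tetrodotoxin-sensitive and tetrodotoxin-resistant channels can be read in the genes themselves, so the matching stretch of 5 alpha subunits is shown here. Each line gives 45 bases of the coding strand of the GENCODE M21 transcripts (GRCm38), 5′ to 3′, from the first pore loop. Capitals mark the codon known to set tetrodotoxin sensitivity. Each stretch lies within 1 exon.
Scn3a, chr2:65521792-65521836, minus strand: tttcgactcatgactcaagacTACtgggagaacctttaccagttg
Scn8a, chr15:100971617-100971661, plus strand: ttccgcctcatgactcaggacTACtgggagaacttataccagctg
Scn9a, chr2:66548980-66549024, minus strand: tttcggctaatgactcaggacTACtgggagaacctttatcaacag
Scn10a, chr9:119666366-119666410, minus strand: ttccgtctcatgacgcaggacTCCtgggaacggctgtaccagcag
Scn11a, chr9:119805659-119805703, minus strand: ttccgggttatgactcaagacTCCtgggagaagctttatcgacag

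The marked codon was TCC, a serine codon, in Scn10a and Scn11a. It was TAC, a tyrosine codon, in Scn3a, Scn8a and Scn9a. Over the whole stretch, codon included, Scn10a and Scn11a matched at 33 of the 45 bases, and Scn9a and Scn11a at 38. Such likeness bears on how reads were assigned. Of the 31-base words in a gene's transcripts, the share found in another gene was 9.57% for Scn3a, 7.29% for Scn1a, 6.23% for Scn9a and 3.03% for Scn10a. It was 0.528% for Scn8a and 0.102% for Scn11a, and between 0.0% and 2.22% for the beta subunits. The genes lie in groups: Scn3a (65457118 to 65567627), Scn1a (66270778 to 66440840) and Scn9a (66480080 to 66634962) lie on chromosome 2, with all 3 on the minus strand. Scn1a and Scn9a lie close together there, and Scn3a lies further off. Scn10a (119608456 to 119719322) and Scn11a (119753759 to 119825456) adjoin on chromosome 9, minus strand, and Scn2b (45117782 to 45130070), Scn4b (45138395 to 45154152) and Scn3b (40269217 to 40291618) lie on the plus strand of the same chromosome. Scn8a is on chromosome 15 (100869858 to 101045938, plus strand). Scn9a shares 1.41% of its exon bases with Gm13629, annotated on the opposite strand, and no source used here says whether the counting used strand.

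Sequencing depth and composition were as follows. Total estimated counts were 12.1 to 14.7 M (M, 1e+06) in the knockout libraries of batch 1 and 27.9 to 30.8 M in those of batch 2. Flox totals were 46.9 to 52.1 M in batch 1 and 30.9 to 36 M in batch 2. Monkey totals were 9.02 to 22.4 M for SADBE and 13.7 to 27.1 M for vehicle. TPM, transcripts per 1e+06 transcripts, correct for transcript length and were used to compare genes. CPM, counts per 1e+06 counts after scaling by trimmed means of M values (TMM), were used to compare libraries. All 7 genes of sensory neuron identity were detected, with a summed level of 1839 to 3743 CPM in knockout and 1310.5 to 2418 CPM in flox libraries, and of 1090.3 to 1568 CPM in SADBE and 408 to 1423 CPM in vehicle libraries. Adam17, the targeted gene, stood at 16.1 to 34.6 CPM in knockout and 17.6 to 33.3 CPM in flox libraries, with a log2 fold change of 0.03 ± 0.18 (SE; adjusted p = 0.93 in edgeR). Since the deleted exons are not given, this level does not check the genotype, and the genotypes are used as labelled. Knockout libraries 6 and 7 stood apart in the summed level of 4 Y-linked genes, with 155 and 181 CPM against 4.3 to 12 CPM in the other 12 mouse libraries.

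None of the 9 sodium channel genes passed the test between knockout and flox DRG. edgeR's quasi-likelihood test over both batches, with batch as a term, called 0 of 9 members at an adjusted p under 0.05, while it called 15.5% of the 15654 genes tested (7.97% higher and 7.51% lower in knockout). At an unadjusted p under 0.05 the members again gave 0 of 9, against 30.9% of all genes. The members' log2 fold changes lay between -0.32 for Scn2b and 0.51 for Scn3a, with a median of 0.09 beside -0.01 for all genes, and 7 of 9 were above 0. With libraries scaled to pan-neuronal genes, which moved the median of all genes to -0.27, the values of Scn8a, Scn9a, Scn10a, Scn11a and Scn3b turned negative. Each interval below is a 95% interval of the log2 fold change and shows which sizes of difference these libraries leave possible. As bulk samples, they cannot tell apart fewer cells of a type and less RNA per cell.

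Of the tetrodotoxin-resistant pair, Scn10a, the main sodium channel of nociceptor action potentials, varied most between libraries. In batch 1 it stood at 404, 346, 237 and 192 CPM in knockout libraries 1 to 4, against 252, 161 and 188 CPM in flox libraries 1 to 3. The batch 2 levels were 138, 57.5 and 69.4 CPM in knockout libraries 5 to 7, against 107, 149, 78.5 and 119 CPM in flox libraries 4 to 7. Knockout libraries 1 and 2 were the highest of all 14 and knockout libraries 6 and 7 the lowest, and the groups overlapped in both batches. Within batches its log2 fold changes had opposite signs, at 0.53 ± 0.26 for batch 1 and -0.35 ± 0.30 for batch 2. Over both batches it was 0.10 ± 0.25 (SE), with an interval from -0.44 to 0.64 and an adjusted p of 0.82 in edgeR. The difference between the batches, -0.92 ± 0.44, did not pass either (unadjusted p = 0.0559, adjusted p = 0.38). In batch 2 the value depended on which knockout libraries were kept: without knockout library 5 it was -0.84 ± 0.22 and was called (adjusted p = 0.0392 in edgeR). That fit keeps only knockout libraries 6 and 7, with Y-linked sums of 155 and 181 CPM. The 4 flox libraries of batch 2 had 8.76 to 9.87 CPM. Genotype and Y-linked level cannot be told apart in that fit, and their parts were not tested. Without knockout libraries 6 and 7, which leaves knockout library 5 alone against the 4 flox libraries, the Scn10a value was 0.30.

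Scn11a, whose channel carries a persistent current near the resting potential, stood at 284, 213, 144 and 150.4 CPM in knockout libraries 1 to 4, against 187, 144 and 133 CPM in flox libraries 1 to 3. Batch 2 showed 162, 86.6 and 89 CPM in knockout libraries 5 to 7, against 109.6, 196, 99.5 and 142 CPM in flox libraries 4 to 7. Knockout libraries 1 and 2 were again the highest of the 14 and knockout libraries 6 and 7 the lowest, and the groups overlapped in each batch. The log2 fold change was 0.04 ± 0.22 over both batches, with an interval from -0.43 to 0.50 (adjusted p = 0.926 in edgeR). Within batches it was 0.32 ± 0.25 in batch 1 and -0.27 ± 0.28 in batch 2. Knockout library 5 alone against the 4 flox libraries of batch 2 gave 0.27.

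**Figure D1:**
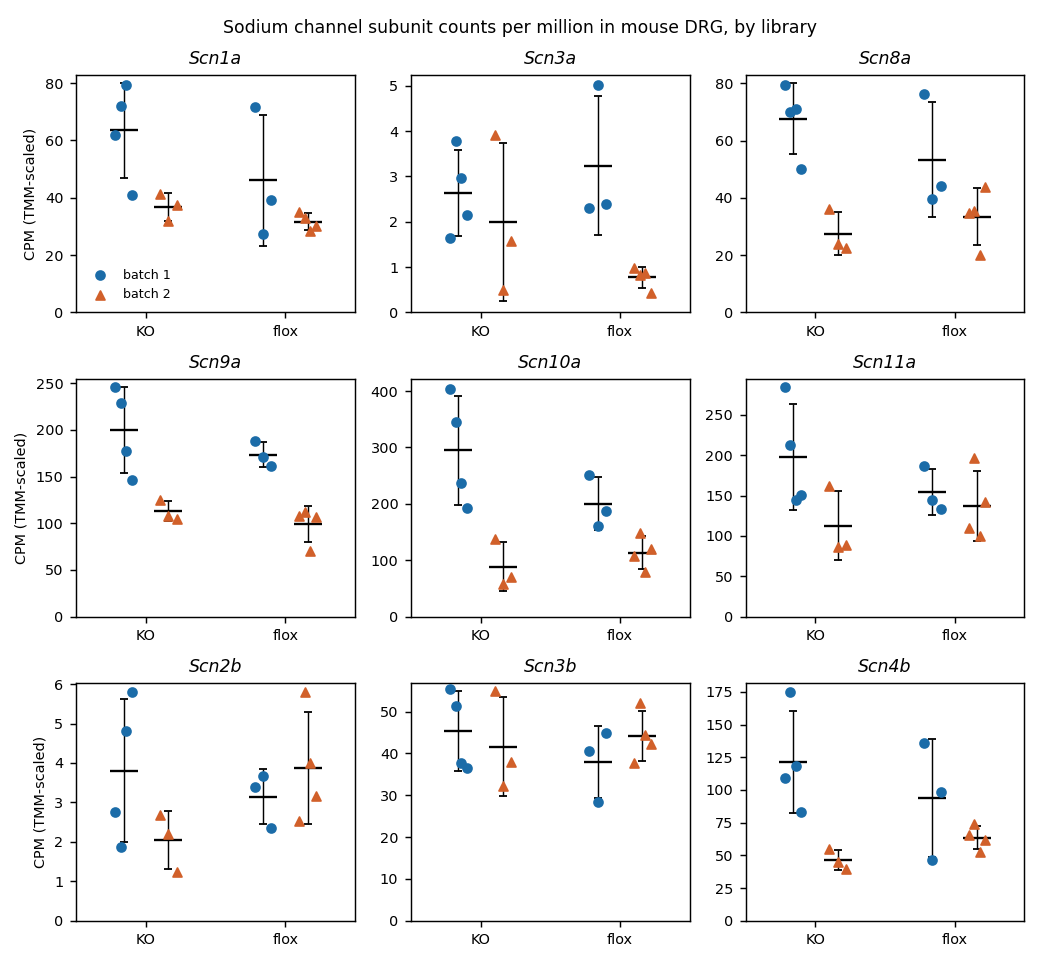
CPM (TMM-scaled, linear axes) of the 9 subunit genes in each mouse library, knockout left and flox right; circles are batch 1 and triangles batch 2, bars are the mean and SD within a batch. Knockout and flox libraries of the same batch overlap in every panel, while Scn9a and Scn10a of batch 1 lie above batch 2 in both genotypes.

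Among the tetrodotoxin-sensitive alpha subunits, Scn9a, the channel whose loss abolishes pain in humans, was the most abundant. It stood at 246, 229, 177 and 146 CPM in knockout libraries 1 to 4, against 188, 171 and 161 CPM in flox libraries 1 to 3. In batch 2 it stood at 125, 108 and 105 CPM in knockout libraries 5 to 7, against 108, 112, 70.6 and 107 CPM in flox libraries 4 to 7. The knockout mean was slightly above the flox mean in both batches, with overlapping libraries. Its log2 fold change of 0.19 ± 0.13 had an interval from -0.08 to 0.47 (adjusted p = 0.34 in edgeR). The within-batch values were nearly equal, at 0.17 ± 0.19 in batch 1 and 0.19 ± 0.17 in batch 2. With libraries scaled to pan-neuronal genes the value over both batches was -0.07.

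Scn1a, the channel of many myelinated mechanoreceptive and proprioceptive neurons, had the lowest p of the members. In batch 1 it stood at 61.9, 71.9, 79.2 and 40.9 CPM in knockout libraries 1 to 4, against 71.6, 27.3 and 39.1 CPM in flox libraries 1 to 3. Levels in batch 2 were 41.3, 31.7 and 37.3 CPM in knockout libraries 5 to 7, against 35, 32.8, 28.4 and 30.1 CPM in flox libraries 4 to 7. In batch 1, flox library 1 lay among the knockout libraries, and in batch 2 the groups overlapped by a small margin. The log2 fold change was 0.34 ± 0.19 with an interval from -0.06 to 0.75 (unadjusted p = 0.0899, adjusted p = 0.234 in edgeR). Permuting genotype within batches, an exact two-sided test with 1225 splits, gave p = 0.107, and 0.000816 is the smallest it allows. Over all alternatives the adjusted p of Scn1a lay between 0.058 and 0.503.

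Scn8a, the channel of nodes of Ranvier, stood at 79.5, 70.1, 70.9 and 50.2 CPM in knockout libraries 1 to 4, against 76.4, 39.7 and 44 CPM in flox libraries 1 to 3. Batch 2 gave 36.1, 23.9 and 22.5 CPM in knockout libraries 5 to 7, against 34.6, 35.3, 19.9 and 43.9 CPM in flox libraries 4 to 7. The groups overlapped in both batches, and the log2 fold change of 0.03 ± 0.21 had an interval from -0.41 to 0.48 (adjusted p = 0.933 in edgeR). It was 0.32 ± 0.24 in batch 1 and -0.27 ± 0.27 in batch 2.

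Scn3a, the embryonic channel, was close to the limit of detection. Its estimated counts were 26, 59, 45 and 27 in knockout libraries 1 to 4 and 97, 13 and 37 in knockout libraries 5 to 7. In flox libraries they were 133, 269 and 134 in batch 1, at the greater depth of those libraries, and 28, 28, 27 and 14 in batch 2. On the CPM scale the knockout libraries spanned 0.495 to 3.92 and the flox libraries 0.436 to 5.01, with overlapping groups. Knockout library 5, at 3.92 CPM, was the highest of batch 2, where the flox libraries held 0.436 to 0.974 CPM. The log2 fold change was -0.33 ± 0.43 in batch 1, 1.37 ± 0.69 in batch 2 and 0.51 ± 0.45 over both. The interval over both batches ran from -0.44 to 1.46 (adjusted p = 0.471 in edgeR). In batch 2 the value was 0.40 at the lowest when a single library was left out. Of 6 injured-neuron genes listed beside it, 5 rose in knockout over both batches, beside 7.97% of all genes tested. The summed level of the 6 was 275 to 952 CPM in knockout and 116 to 179 CPM in flox libraries. It was highest in knockout library 5. The part of this in the Scn3a values was not tested.

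The beta subunits gave no call either. Scn4b encodes the subunit linked to resurgent current in large sensory neurons. It stood at 109, 175, 118 and 82.9 CPM in knockout libraries 1 to 4, against 136, 46.2 and 98.7 CPM in flox libraries 1 to 3. Batch 2 held 55.1, 44.8 and 39.7 CPM in knockout libraries 5 to 7, against 65.9, 73.8, 52.5 and 61.5 CPM in flox libraries 4 to 7. Knockout library 5 overlapped flox library 6 in batch 2, and knockout libraries 6 and 7 lay below every flox library of that batch. The log2 fold change was -0.04 ± 0.23 over both batches (interval -0.53 to 0.46, adjusted p = 0.935 in edgeR) and 0.34 ± 0.36 in batch 1. Its value of -0.44 ± 0.16 within batch 2 was the only within-batch value of a member that passed 0.05 before adjustment (unadjusted p = 0.0225, adjusted p = 0.105 in edgeR). It was called in batch 2 without knockout library 5 (-0.59, adjusted p = 0.0462) and with scaling to pan-neuronal genes (-0.52, adjusted p = 0.046). The fit without knockout library 5 keeps only knockout libraries 6 and 7, which had the high Y-linked sums. Genotype and Y-linked level cannot be told apart in it.

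Scn3b, whose product associates with alpha subunits without a covalent bond, had the narrowest relative range of CPM over the 14 libraries. It stood at 55.5, 51.4, 37.8 and 36.6 CPM in knockout libraries 1 to 4 and at 54.9, 32.1 and 37.9 CPM in knockout libraries 5 to 7. Flox libraries held 40.6, 28.4 and 44.9 CPM in batch 1 and 37.8, 52.1, 44.3 and 42.2 CPM in batch 2. Genotypes and batches overlapped, and the log2 fold change of 0.09 ± 0.16 had an interval from -0.25 to 0.42 (adjusted p = 0.749 in edgeR).

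Scn2b, whose product is bound to the alpha subunit by a disulfide bond, was expressed at a low level. It stood at 1.23 to 5.79 CPM with a median of 2.67 CPM in knockout, against 2.35 to 5.80 CPM with a median of 3.40 CPM in flox libraries. The groups overlapped, and the log2 fold change was -0.32 ± 0.35, with an interval from -1.05 to 0.41 (adjusted p = 0.564 in edgeR). Within batch 2 it was -0.92 ± 0.43 (unadjusted p = 0.0567, adjusted p = 0.185), and without knockout libraries 6 and 7 the value over both batches was 0.03. For the 9 members, the exact permutation p lay between 0.107 and 0.991.

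**Figure D2:**
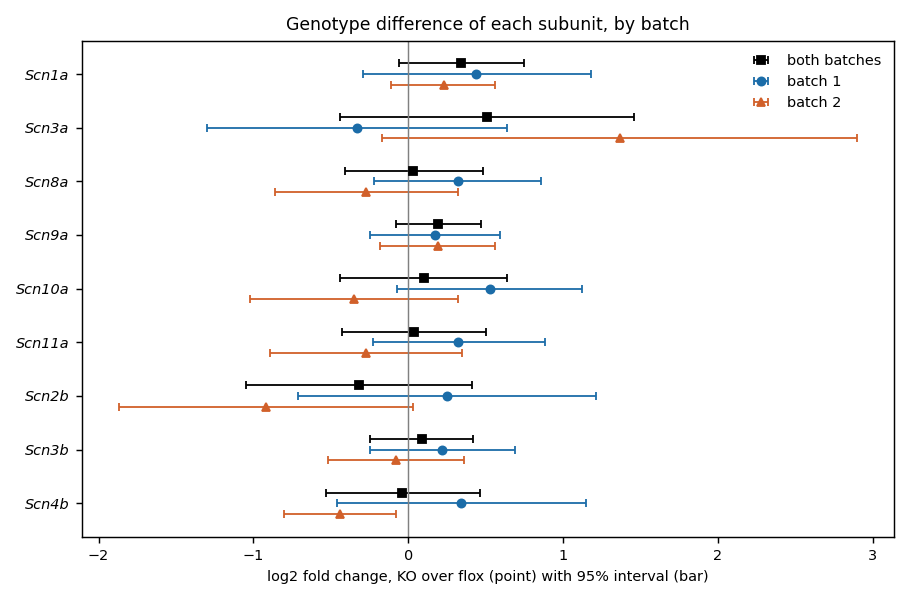
Log2 fold change, knockout over flox, of each subunit gene with its 95% interval, from edgeR over both batches (squares) and within batch 1 (circles) and batch 2 (triangles). The interval over both batches includes 0 for all 9 genes. Scn10a, Scn11a, Scn8a, Scn2b, Scn3b and Scn4b lie above 0 in batch 1 and below 0 in batch 2. Batch 2 includes knockout libraries 6 and 7, which had high Y-linked sums.

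The genotype difference of the members varied between batches without passing a test. In batch 1, 0 of 9 members were called, beside 1.8% of 15140 genes (1.12% higher and 0.687% lower), and 0 of 9 had an unadjusted p under 0.05, beside 16.4% of genes. There 8 of 9 values were above 0 and their median was 0.32. In batch 2, 0 of 9 were called, beside 13.2% of 15780 genes (7.22% higher and 5.99% lower), and 1 of 9 had an unadjusted p under 0.05, beside 29.2% of genes. There 3 of 9 values were above 0 and their median was -0.27. A dependence of the genotype difference on batch was called for 0 of 9 members, beside 1.03% of 15654 genes (0.658% higher and 0.371% lower), with 8 of 9 interaction values below 0. No member had an unadjusted interaction p under 0.05, against 13.9% of all genes, and the lowest was that of Scn10a. In no batch did the 2 genotypes of a member separate without overlap, beside 7.48% of genes higher and 6.63% lower in batch 1, and 13.3% higher and 13.7% lower in batch 2.

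Levels per transcript length placed the nociceptor channels first. Ordered by mean TPM in knockout libraries (n = 7), the members stood at 37.3 ± 24.8 for Scn10a, 32.1 ± 14.9 for Scn11a, 21 ± 12 for Scn4b, 19.3 ± 7.61 for Scn9a, 12.8 ± 3.79 for Scn3b, 9.57 ± 4.02 for Scn1a and 5.89 ± 2.97 for Scn8a (TPM, SD). Scn2b, at 0.764 ± 0.382 TPM, and Scn3a, at 0.44 ± 0.46 TPM, came last. In flox libraries (n = 7) the order was Scn11a at 28.7 ± 9.27, Scn10a at 26.6 ± 10, Scn4b at 18 ± 7.55, Scn9a at 15.4 ± 4.17, Scn3b at 12.3 ± 3.62, Scn1a at 6.70 ± 3.55 and Scn8a at 5.00 ± 1.80 TPM. Scn2b, at 0.922 ± 0.391 TPM, and Scn3a, at 0.285 ± 0.176 TPM, were again last. Several neighbours in this order could not be separated. Scn10a exceeded Scn11a in 4 of 7 knockout libraries and Scn11a exceeded Scn10a in 4 of 7 flox libraries. Scn4b exceeded Scn9a in 3 of 7 knockout and 6 of 7 flox libraries. By contrast, Scn11a lay above Scn4b in knockout, and Scn10a above Scn4b in flox, in 7 of 7 libraries each.

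The leading channel followed the batch rather than the genotype. The Scn10a to Scn11a ratio of TPM was 1.16 to 1.5 among the knockout and 1.01 to 1.28 among the flox libraries of batch 1, but 0.603 to 0.77 among the knockout and 0.687 to 0.887 among the flox libraries of batch 2. Scn10a led in all 7 libraries of batch 1 and Scn11a in all 7 of batch 2. Scn10a averaged 295 CPM in batch 1 and 88.2 CPM in batch 2 in knockout mice, a ratio of 3.34, and 200.3 and 113 CPM in flox mice, a ratio of 1.77, with no overlap between batches in either genotype. Scn9a was also higher in batch 1 without overlap, with ratios of 1.77 in knockout and 1.75 in flox mice. Scn8a and Scn4b separated in knockout only, with ratios of 2.46 and 2.6, and Scn3a in flox only, with 4.17. The share of all genes that separate between batches was not counted, so the separation is not shown to be particular to these channels. Scn3b hardly moved, with ratios of 1.09 in knockout and 0.861 in flox mice. The TPM of a library summed to 0.601 to 0.834 M in batch 1 and to 0.954 to 0.979 M in batch 2, so TPM levels are compared within a library.

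Shares within the alpha subunits remove that scale. Scn10a and Scn11a together with Scn9a carried most of the summed alpha-subunit TPM in every mouse library. Scn10a made up 32.6 ± 7.87% of it in knockout and 31.7 ± 3.2% in flox libraries (SD, n = 7 each). Scn11a made up 31.7 ± 4.59% in knockout and 35 ± 5.71% in flox, and Scn9a 19.7 ± 3.77% in knockout and 18.9 ± 2.84% in flox libraries. These means differed by less than the spread between libraries, but that spread includes the difference between batches. The mean Scn10a share was 38.5% in knockout and 34.7% in flox in batch 1, and 24.8% and 29.4% in batch 2. The mean Scn9a share was 17.6% in knockout and 20.5% in flox in batch 1, and 22.5% and 17.7% in batch 2. In batch 2 the Scn10a share was 29.2, 21.4 and 23.9% in knockout libraries 5 to 7, against 30.3, 30.0, 27.5 and 29.8% in flox libraries 4 to 7. Knockout libraries 6 and 7 lay below the flox libraries and knockout library 5 among them. In the same libraries the Scn9a share was 17.5, 26.6 and 23.6% in knockout, against 21, 15.3, 16.3 and 18.1% in flox. In batch 1 the Scn10a share spanned 35.9 to 40.8% among the knockout and 32.4 to 36.4% among the flox libraries, with overlap.

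**Figure D3:**
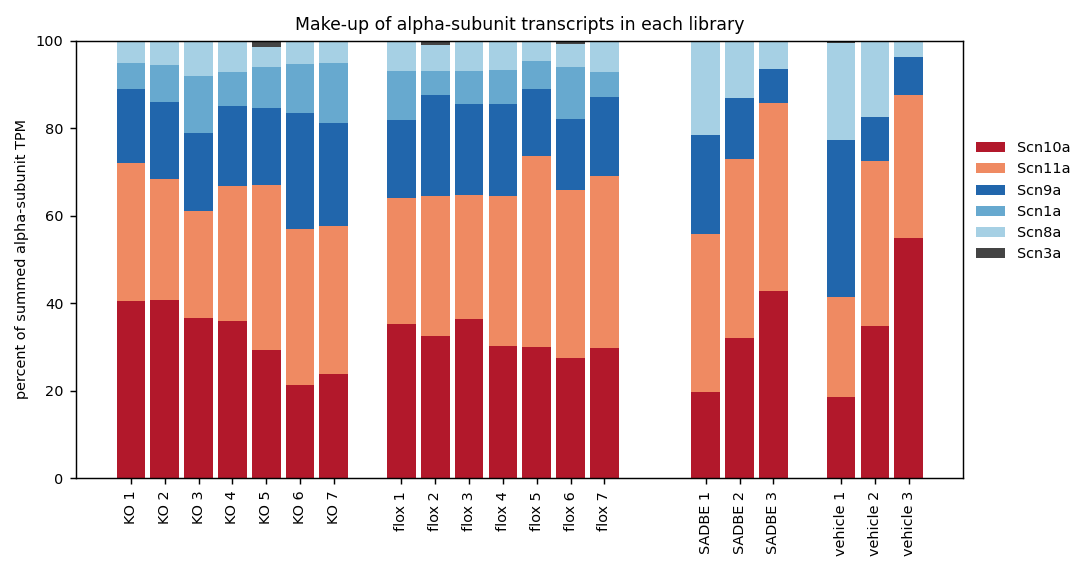
Share of each alpha subunit in the summed alpha-subunit TPM of each library, in percent, for mouse knockout, mouse flox, monkey SADBE and monkey vehicle libraries; legend symbols are the mouse ones and stand for both species, and SCN1A has no part in the monkey bars. Scn10a and Scn11a are the tallest segments of each mouse bar except that of knockout library 6, where Scn9a exceeds Scn10a (26.6 and 21.4%).

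Profiles over the 14 mouse libraries were compared by the root mean square difference of log2 CPM, centred within batch and scaled to unit SD, where 0 is an identical profile. Of 13479 genes compared, the gene most like Scn11a was Scn10a, at 0.361, and Scn11a was the 9th gene in likeness to Scn10a. The gene nearest to Scn10a was Rab6b, at 0.283. For the other members the nearest genes were Snap25 for Scn1a (0.341), Cmip for Scn8a (0.327), 2310057M21Rik for Scn9a (0.427), Ssr1 for Scn3a (0.587), Katnip for Scn2b (0.326), Rgs3 for Scn3b (0.437) and Cdk16 for Scn4b (0.328). The median difference to all genes was 1.38 to 1.43. These values describe the 14 libraries, which share batch and composition, and carry no test.

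Other sodium channel genes were also not called. Of 4 examined (Scn2a, Scn4a, Scn7a and Nalcn), 0 were called, beside 15.5% of all genes. An unadjusted p under 0.05 was found for 1 of the 4, beside 30.9% of all genes, and their median log2 fold change was 0.20. With libraries scaled to pan-neuronal genes that median was -0.09, and 1 of the 4, Nalcn, was called lower. Scn2a, the channel of unmyelinated axons in the brain, stood at 5.09 to 11.9 CPM with a median of 11.2 CPM in knockout, against 4.28 to 7.97 CPM with a median of 6.62 CPM in flox libraries. Its 3 knockout libraries of batch 2, at 11.9, 11.2 and 11.8 CPM, lay above all 7 flox libraries. The log2 fold change was 0.57 ± 0.21 (unadjusted p = 0.0144, adjusted p = 0.0742 in edgeR), and Scn2a was called, among others, with DESeq2 (adjusted p = 0.0329), with limma on log2(TPM + 1) (adjusted p = 0.023) and without knockout library 1 (adjusted p = 0.0388). Its value was 0.30 with scaling to pan-neuronal genes (adjusted p = 0.408), and its adjusted p was 0.243 without the batch term and 0.234 without knockout libraries 6 and 7. Scn2a shares 31-base words with Scn1a, Scn3a and Scn9a. Scn7a, the sodium-level sensor of glia and neurons, had a log2 fold change of 0.25 ± 0.14 (adjusted p = 0.244).

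Of 25 genes for proteins that anchor, traffic or modify sodium channels, 4 rose and 1 fell, beside 7.97% of all genes higher and 7.51% lower, and their median log2 fold change was 0.12. Among those that rose, Nrcam and Cntn1 encode cell adhesion molecules of axons. Nrcam, an adhesion molecule of nodes of Ranvier, stood at 29.4 to 65.5 CPM with a median of 41.8 CPM in knockout, against 19.8 to 37.3 CPM with a median of 25.8 CPM in flox libraries. It rose by 0.70 ± 0.17 (log2 fold change ± SE, adjusted p = 0.0143 in edgeR), with no overlap in batch 2 and an overlap in batch 1, where it stood at 29.4 to 51.5 CPM in knockout against 19.8 to 37.3 CPM in flox libraries. Cntn1, encoding contactin 1, stood at 138 to 658 CPM in knockout and 129.5 to 399 CPM in flox libraries, and rose by 0.55 ± 0.15 (adjusted p = 0.0206). The call of Cntn1 was lost without knockout library 5 (adjusted p = 0.0586), without flox library 7 (adjusted p = 0.0518), and without knockout libraries 6 and 7 (adjusted p = 0.0542). Within batches, both genes were called in batch 2 only. Nrcam gave 0.52 ± 0.25 in batch 1 (adjusted p = 0.337 in edgeR) and 0.85 ± 0.21 in batch 2 (adjusted p = 0.0242). Cntn1 gave 0.30 ± 0.21 in batch 1 (adjusted p = 0.521) and 0.79 ± 0.17 in batch 2 (adjusted p = 0.0146).

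Anxa2, encoding annexin A2, partner of the p11 protein that carries NaV1.8 to the membrane, was much higher in batch 2 than in batch 1. It stood at 1409.9 to 1695 CPM in knockout against 1011 to 1113 CPM in flox libraries of batch 1, and at 3957 to 4464 CPM in knockout against 3339 to 3955 CPM in flox libraries of batch 2. The genotypes did not overlap in either batch, in batch 2 only by a small margin (3957 and 3955 CPM). The log2 fold change was 0.41 ± 0.09 (adjusted p = 0.00696 in edgeR). Neither batch alone gave a call, with 0.52 ± 0.13 in batch 1 (adjusted p = 0.0851) and 0.26 ± 0.11 in batch 2 (adjusted p = 0.15). S100a10, which encodes p11 itself, did not pass. Prmt7, an arginine methyltransferase, rose by 0.51 ± 0.12 (adjusted p = 0.0123), with a range of 41.1 to 82.4 CPM in knockout and 30.1 to 66.9 CPM in flox libraries. Prmt7 was also called in neither batch alone (0.66 ± 0.16 in batch 1, adjusted p = 0.0833, and 0.34 ± 0.16 in batch 2, adjusted p = 0.187). With libraries scaled to pan-neuronal genes, Anxa2, Prmt7 and Cntn1 were not called (0.14, 0.25 and 0.30 on the log2 scale). With limma on log2(TPM + 1) none of the 4 partners that rose was called, with adjusted p of 0.0633 for Nrcam, 0.0691 for Cntn1, 0.0625 for Anxa2 and 0.139 for Prmt7.

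Pdzd2, a scaffold protein with PDZ domains reported to bind NaV1.8, was the partner that fell. It stood at 26.8, 17.2, 19.1 and 29 CPM in knockout libraries 1 to 4, against 25.7, 52.4 and 39.2 CPM in flox libraries 1 to 3. In batch 2 it stood at 13.6, 10.8 and 15.4 CPM in knockout libraries 5 to 7, against 25.7, 28.2, 18 and 33.5 CPM in flox libraries 4 to 7. The genotypes separated in batch 2 and overlapped in batch 1 through flox library 1. The log2 fold change was -0.88 ± 0.19 (adjusted p = 0.00548 in edgeR); batch 1 alone gave -0.80 ± 0.27 and batch 2 alone -0.99 ± 0.23. When batch was left out of the model, none of these 5 partners was called.

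The neuron and cell type lists around the channels did not move as a block. Beside the counts below, 7.97% of all genes tested were called higher and 7.51% lower over both batches. A single call in so short a list is not read as a change of that list. Of 10 pan-neuronal genes 1 rose, with a summed level of 3158 to 4053 CPM in knockout and 2105 to 3755 CPM in flox libraries. Of 8 small-nociceptor genes 4 rose, and their summed level was 3167 to 4359 CPM in knockout against 2088 to 2885 CPM in flox libraries of batch 1, and 1862 to 2155 CPM in knockout against 1087 to 1320.1 CPM in flox libraries of batch 2. That sum separated the genotypes in both batches, where the levels of Scn9a, Scn10a and Scn11a overlapped. A sum is weighted to its most abundant genes, and the list did not rise as a whole. Over both batches 5 of the 8 values were above 0, while Mrgprd (-0.50), Prdm12 (-0.59) and P2rx3 (-0.01) lay below 0, uncalled. In batch 2 Prdm12 was called lower (-1.50, adjusted p = 0.0231 in edgeR). Of 7 sensory identity genes 2 rose, of 5 genes of C-fibre low-threshold mechanoreceptors 2 fell, and of 8 large-neuron genes 1 fell. Among other cells, 5 of 5 neutrophil genes rose (475 to 4640.5 CPM in knockout and 35.8 to 565 CPM in flox libraries), 5 of 5 fibroblast genes fell (1288 to 3055 CPM in knockout and 2744 to 5451 CPM in flox) and 5 of 6 myelinating Schwann cell genes fell (3410.2 to 5922 CPM in knockout and 5732 to 10838 CPM in flox). Of 5 satellite glia genes 1 rose, and 0 of 6 skeletal muscle, 0 of 5 macrophage and 0 of 3 spinal cord genes were called. The skeletal muscle sum varied widely between libraries, from 8.41 to 2676 CPM in knockout and from 28.0 to 3899 CPM in flox, so the lack of calls does not show equal muscle content. The part of these shifts in the sodium channel values was not tested.

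**Figure D4:**
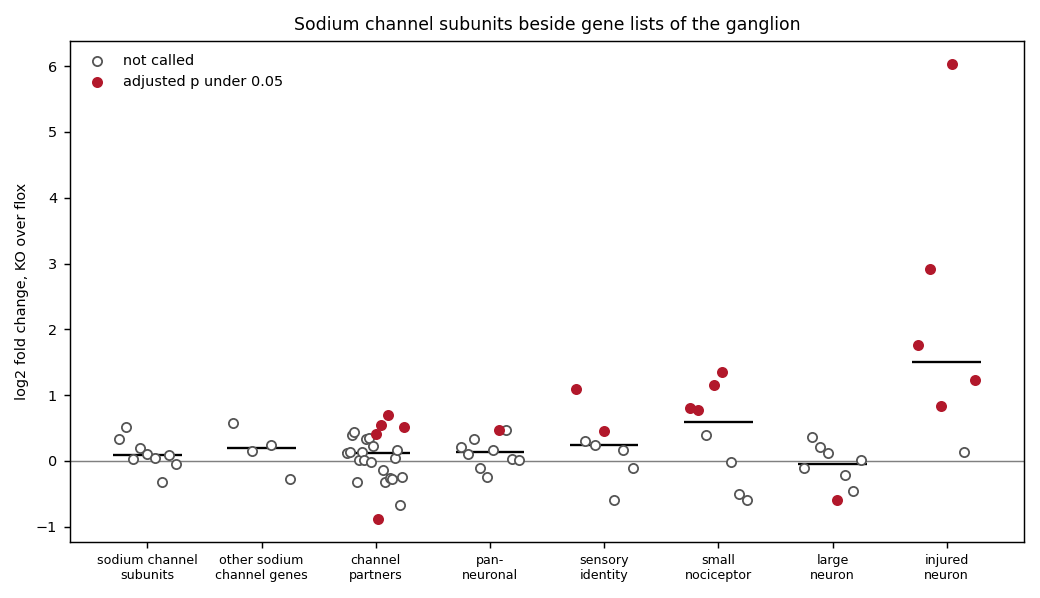
Log2 fold change over both mouse batches, knockout over flox, of the 9 sodium channel subunits and of the genes of 7 lists; filled points had an adjusted p under 0.05 in edgeR and horizontal lines are medians. The subunits hold no filled point and have a median of 0.09, while the lists of small nociceptors and injured neurons hold 4 and 5 filled points. Over all genes tested, 15.5% had an adjusted p under 0.05.

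In monkeys, no sodium channel gene passed between SADBE and vehicle. edgeR called 0 of 7 tested members, and 0.0% of the 17988 genes tested, at an adjusted p under 0.05. At an unadjusted p under 0.05 it called 0 of 7 members and 3.06% of all genes. DESeq2 called 8 genes higher and 20 lower, with 0 members among them. With 3 libraries against 3, the exact permutation test cannot go below 0.1, and its values were 0.7 to 1.0 for the 8 members. No member's groups separated, beside 4.63% of genes higher and 4.56% lower with SADBE without overlap. One library stood apart in neuronal content: the 10 pan-neuronal genes summed to 7242, 6555 and 6095 CPM in SADBE libraries 1 to 3, against 1436, 6655 and 7759 CPM in vehicle libraries 1 to 3.

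SCN10A stood at 38.4, 52.6 and 77.9 CPM with SADBE, against 13.2, 87.6 and 127 CPM with vehicle. SCN11A stood at 70.9, 67.4 and 77.5 CPM with SADBE, against 16.8, 95.6 and 74.4 CPM with vehicle. For both nociceptor channels vehicle library 1 was the lowest of the 6, and the SADBE libraries lay inside the vehicle range. The log2 fold changes were -0.43 ± 0.72 for SCN10A (interval -2.08 to 1.21) and 0.21 ± 0.60 for SCN11A (interval -1.15 to 1.57), each with an adjusted p of 0.999 in edgeR. Leaving out 1 library at a time moved SCN10A between -0.94 and 0.15.

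SCN9A stood at 75.2, 39.8 and 24 CPM with SADBE, against 43.5, 44.3 and 33.5 CPM with vehicle. SCN8A stood at 76.4, 38.9 and 21.9 CPM with SADBE, against 29.6, 80.3 and 15.4 CPM with vehicle. SADBE library 1 and, for SCN8A, vehicle library 2 were high, and the groups overlapped. Their log2 fold changes were 0.20 ± 0.49 and 0.13 ± 0.69. With scaling to pan-neuronal genes, which moved the median of all genes to -1.08, they were -1.02 and -0.79. SCN3A held 13, 1 and 2 estimated counts with SADBE, against 27, 5 and 1 with vehicle, and was below the count filter.

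The beta subunits SCN3B and SCN4B came first by mean level in monkey DRG, and SCN2B lay below SCN10A and SCN11A in both groups, at 10.8 TPM with SADBE and 8.70 TPM with vehicle. The place of SCN4B with SADBE rests on SADBE library 1, at 53.2 TPM, and its median of 18 TPM was below the 21.3 TPM of SCN11A. With SADBE SCN3B stood at 57.4 ± 19.5 TPM, against 101 ± 91.1 TPM with vehicle (SD, n = 3 each). SCN4B stood at 28.3 ± 21.6 TPM with SADBE, against 42.8 ± 31.8 TPM with vehicle, and lay below SCN3B in 2 of 3 SADBE and 1 of 3 vehicle libraries. In CPM, SCN3B stood at 121, 279.6 and 192 with SADBE, against 109.8, 188 and 837 with vehicle, so that vehicle library 3 set the vehicle mean. Its log2 fold change of -0.94 ± 0.77 had an interval from -2.69 to 0.81, and reached 0.39 when a library was left out. SCN4B stood at 139, 54.7 and 40.6 CPM with SADBE, against 117, 182 and 41.7 CPM with vehicle, and its log2 fold change was -0.54 ± 0.66. SCN2B stood at 17.6, 52.6 and 30.4 CPM with SADBE, against 11.8, 24.5 and 46.4 CPM with vehicle, a log2 fold change of 0.28 ± 0.61. The TPM ratio of SCN2B to SCN4B was 0.119 to 0.906 with SADBE and 0.095 to 1.05 with vehicle, while in mice the ratio of Scn2b to Scn4b spanned 0.0115 to 0.0763 with the knockout and 0.0258 to 0.0863 with the flox genotype. The species ranges did not overlap, and the tables of the 2 species were made separately.

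Within the alpha subunits without SCN1A, SCN11A held 40 ± 3.65% of the summed TPM with SADBE and 31.1 ± 7.6% with vehicle (SD, n = 3 each). The groups overlapped, with vehicle library 2 at 37.7% and SADBE library 1 at 35.9%. The lowest share, 22.8%, was that of vehicle library 1, the library with the low pan-neuronal sum. SCN10A held 31.5 ± 11.4% with SADBE and 36.0 ± 18.2% with vehicle. The shares of SCN9A, at 14.9 ± 7.48% with SADBE and 18.3 ± 15.4% with vehicle, and of SCN8A, at 13.5 ± 7.43% with SADBE and 14.3 ± 9.49% with vehicle, differed by less than the spread between libraries. None of the 3 other sodium channel genes tested (SCN2A, SCN7A and NALCN) or the 25 partners was called in monkeys. No gene of the cell type lists was called either. These libraries bound the differences only loosely: the 95% interval of the SADBE to vehicle fold ran from 0.237 to 2.32 for SCN10A, from 0.45 to 2.97 for SCN11A, from 0.527 to 2.49 for SCN9A and from 0.155 to 1.76 for SCN3B.

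**Figure D5:**
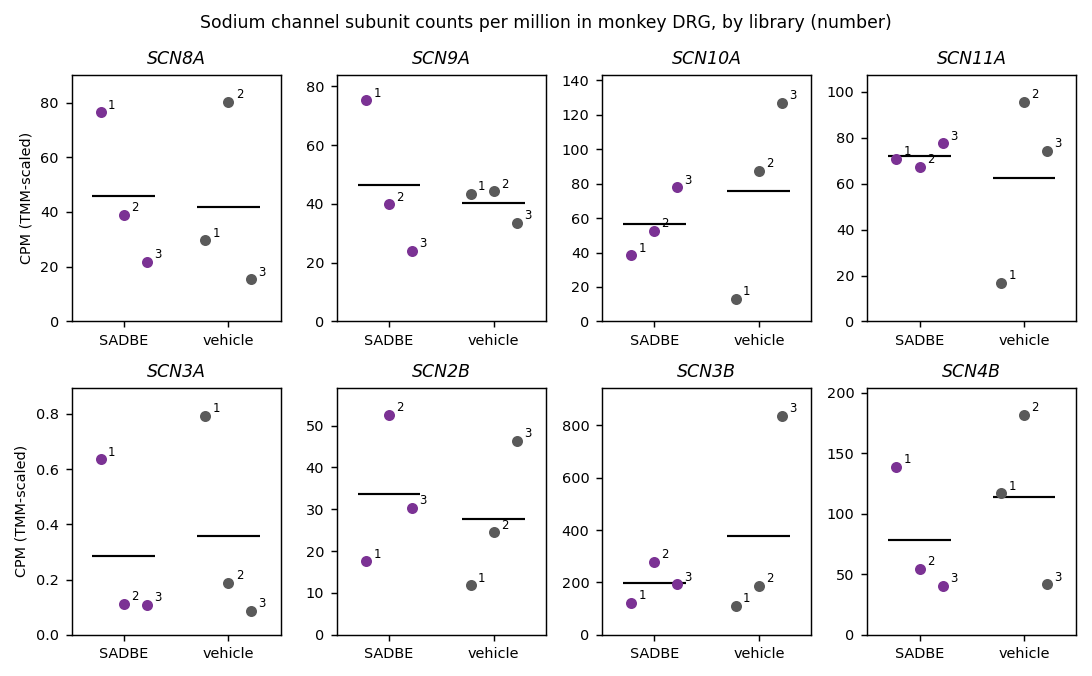
CPM (TMM-scaled, linear axes) of the 8 subunit genes in each monkey library, SADBE left and vehicle right, with the library number beside each point and the group mean as a line. The groups overlap in every panel, and vehicle library 1 is the lowest point for SCN10A and SCN11A.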

How the data were processed

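RNA was sequenced from DRG in 14 mouse and 6 monkey libraries. The authors deposited estimated counts per gene, and TPM per gene, made with kallisto and GRCm38 per the submitters' processing notes, which name GRCm38 for the monkey samples as well; no source used here gives versions or the monkey transcriptome. Kallisto assigns reads that fit several transcripts by estimation, so members with similar sequence can exchange reads. A mouse row that names no gene (0.0785% to 0.186% of counts) was left out. Groups, batches and replicate numbers came from the labels, which do not say that libraries were separate animals, and the p-values therefore reflect variation among libraries. SADBE libraries 2 and 3 were the nearest monkey pair within a group, with a chi-square per gene of 26.5 between their counts. The other such pairs had 269 to 507. This measure falls with lower depth, and knockout libraries 1 and 2 had 21. Whether SADBE libraries 2 and 3 are independent was not tested.

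Estimated counts were rounded and tested in R 4.3.3 with edgeR 4.0.16 (glmQLFit and glmQLFTest, robust). Genes were kept by filterByExpr (count of 10, total of 15) and libraries scaled by TMM, with batch as a term over both mouse batches and none within a batch. Benjamini-Hochberg adjustment ran over all genes tested, and an adjusted p under 0.05 was called. SE and 95% intervals follow from the F statistic of each gene and cover the spread between libraries. Members also had an exact permutation test (two-sided) on mean log2(CPM + 1), within batch in mice. Alternatives were RLE factors, DESeq2 1.42.0, no low-count filter, scaling to 10 pan-neuronal genes, a replicate block, no batch term, limma 3.58.1 on log2(TPM + 1) or log2(TPM + 0.1) and voom, thinning to the smallest library, leaving out libraries, and summing SADBE libraries 2 and 3.

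The members and all lists were chosen with earlier results of these data known, so no list supports a direction. Named are all members; of the other sodium channels and the partners, the called genes, or the 2 with the lowest p; and, for each member, the gene with the most similar profile among tested genes averaging 1 TPM or more. Same-numbered libraries did not deviate together, which cannot exclude a pairing, and the labels do not say what the numbers mark. The code was tested on simulated data. Some sodium channel genes of the chosen lists, and the pore-loop stretch of 1 member, are not reported here.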

Additional observations from a re-analysis of the deposited data

Results flagged for a closer look

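Of 36 groups of 4 to 7 mouse libraries examined for a library far from the rest by Dixon's criterion, 4 held one. The criterion flags about 1 in 20 of independent groups drawn from 1 population. Here the groups of 7 mix both batches and contain the groups of 4, so that rate does not apply. All 4 flags fell on flox libraries. Flox library 1 was the highest of the 7 flox libraries for Scn1a, at 71.6 CPM, and for Scn8a, at 76.4 CPM. Flox library 2 was the highest of the 7 for Scn3a, at 5.01 CPM. Within batch 2, flox library 6 was the lowest of 4 for Scn9a, at 70.6 CPM. Flox library 6 also had the highest skeletal muscle sum of the mouse libraries (3899 CPM) and the lowest pan-neuronal sum of batch 2 (2782 CPM). The part of this in its Scn9a level was not tested.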

How the results depend on the processing

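The count of called members was 0 over both batches, in batch 1, in the interaction and in monkeys under every alternative run. In batch 2 it was 1 when scaled to pan-neuronal genes and 0 to 2 when 1 library was left out, with 2 without knockout library 5. The fit without knockout library 5 keeps only knockout libraries 6 and 7, which had the high Y-linked sums. Of 313 member values under the other alternatives, 280 kept direction and side of the threshold, 32 changed sign and 1 became called. Of 420 with 1 library left out, 377 kept both, 41 changed sign and 2 became called. The cause was not tested.

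Scaling to pan-neuronal genes gave, over both mouse batches, -0.14 for Scn10a, -0.21 for Scn11a, -0.17 for Scn3b, -0.19 for Scn8a and -0.07 for Scn9a. In batch 1 it gave -0.06 for Scn11a, -0.16 for Scn2b, -0.16 for Scn3b, -0.03 for Scn8a and -0.25 for Scn9a, and in monkeys -0.12 for SCN11A, -0.21 for SCN2B, -0.79 for SCN8A and -1.02 for SCN9A. Without knockout libraries 6 and 7, Scn2b was 0.03 and Scn4b 0.20 over both batches. In batch 2 this leaves knockout library 5 alone, assumed to vary like the flox libraries, and gave 0.30 for Scn10a, 0.27 for Scn11a, 0.33 for Scn3b and 0.13 for Scn8a. Scn4b was 0.22 without the batch term, 0.03 in each limma fit on log2 TPM and 0.02 with voom, and Scn8a was -0.02 on log2(TPM + 0.1). The Scn9a interaction was 0.01 without a low-count filter. SCN10A was 0.03 on log2(TPM + 0.1) and 0.03 with voom, and SCN2B was -0.01 with SADBE libraries 2 and 3 summed.

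With the replicate number as a block, 0 members were called in each comparison; Scn4b was 0.07 over both batches and Scn2b -0.11 in batch 1. Same-numbered libraries did not deviate together (correlations of -0.22 to 0.27 in mice and -0.39 to 0.30 in monkeys). With so few libraries these values cannot exclude a pairing, and the labels do not say what the numbers mark.

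With 1 library left out, ranges that crossed 0 over both mouse batches were -0.02 to 0.26 for Scn10a, -0.09 to 0.16 for Scn11a, -0.01 to 0.18 for Scn3b, -0.23 to 0.07 for Scn4b and -0.09 to 0.14 for Scn8a. In batch 1 they were -0.01 to 0.48 for Scn2b and -0.56 to 0.15 for Scn3a, in batch 2 -0.34 to 0.08 for Scn3b, and for the interaction -0.72 to 0.02 for Scn1a and -0.15 to 0.10 for Scn9a. In monkeys they were -0.94 to 0.15 for SCN10A, -0.25 to 0.66 for SCN11A, -0.22 to 0.86 for SCN2B, -1.39 to 0.39 for SCN3B, -0.47 to 1.02 for SCN8A and -0.35 to 0.48 for SCN9A.

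Over 26 alternatives, called partners numbered 0 to 5 higher and 0 to 5 lower, nociceptor genes 2 to 5 higher and 0 to 2 lower, and injured-neuron genes 2 to 5 higher and 0 lower. Low counts limit Scn3a and Scn2b, and 3 libraries a group limit the monkey intervals.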

Other observations

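Levels of the members differed between the mouse batches by ratios of batch 1 to batch 2 of 0.81 to 4.17, taken within a genotype. Scn2a, which is no member, had ratios of 0.655 in knockout and 0.979 in flox mice.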
